A study of Mus musculus with 12 samples.

Results

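miR-335 is a microRNA whose hairpin lies in an intron of Mest, a paternally expressed imprinted gene, and both of its mature arms, mmu-miR-335-5p and mmu-miR-335-3p, were listed in the table of liver small RNA. The members were chosen by name, as the 2 rows of this hairpin among 386 mature miRNA rows. The hairpin itself was selected on its levels across the 4 diet groups, which were already known. Its levels and differences between groups are therefore given as a description, with intervals and without p-values.

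Small RNA had been sequenced from the livers of 12 wild type male C57BL/6 mice, killed in a fasted state at postnatal day 84. The study fed 35 dams: the obesogenic diet held 20% lipids and 10% simple carbohydrates and came with sweetened condensed milk, and the control diet, RM1 chow, held 3% lipids and 7% simple carbohydrates. The sons were weaned onto one of these diets on day 21, which gave the groups OO (mother and son on the obesogenic diet), OC (obesogenic mother, control-fed son), CO (control mother, obesogenic-fed son) and CC (mother and son on the control diet), with 3 libraries each. All mothers kept to their diet through pregnancy until weaning, litters were set to 6 pups on day 3, and the labels do not say which sons shared a mother. The spread given here is that between the 3 livers of a group.

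A microRNA hairpin is cut into a short duplex, from which 1 strand is usually loaded into Argonaute and pairs with messenger RNAs through its seed, bases 2 to 8 from the 5′ end. The other strand is mostly degraded, so the arms of a hairpin can be present at unequal levels. Mest encodes a hydrolase-fold protein, and its expression in mouse fat is known to vary with adipose expansion. miR-335 has been described as more abundant in the liver and white fat of obese mice, as a suppressor of metastasis in human breast cancer cells, where SOX4 and TNC are among its targets, and in rat hepatic stellate cells. Mest RNA and the targets were not analysed here.

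The arms are shown because they carry different seeds and so address different sites. Both sequences are those of RefSeq on GRCm38.p6, written 5′ to 3′ with the seed in capitals.
miR-335-5p: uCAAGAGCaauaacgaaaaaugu
miR-335-3p: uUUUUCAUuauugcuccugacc
Of the 386 rows, 320 had a sequence in RefSeq under the same name, and 0 of the others among these shared bases 2 to 8, or bases 2 to 7, with either arm. Both arms are poor in G and C. The 5p arm is 23 bases long with 30.4% G and C, and 4 of the 320 rows had less. The 3p arm is 22 bases long with 36.4%, and 31 rows had less, against a median of 47.8% over the 320 rows.

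The hairpin is 98 bases long and is printed with both arms in capitals, 5p first, to show how they face each other.
Mir335: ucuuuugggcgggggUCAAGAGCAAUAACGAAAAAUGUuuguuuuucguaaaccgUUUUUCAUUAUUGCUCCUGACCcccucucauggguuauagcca
In the minimum free energy fold by RNAfold, at -44.3 kcal per mol, 18 base pairs joined the arms, of which 13 were A with U and 5 were G with C. Among the first 4 bases at its 5′ end, the 5p arm had 1 G with C pair, 2 A with U pairs and 1 unpaired base, while the 3p arm had 4 A with U pairs. On GRCm38 the hairpin lies at chr6:30741299-30741396, plus strand. In GENCODE release M21 it falls in the 1316-base intron of Mest from 30740825 to 30742140, on the strand of Mest, 474 bases after the exon before it and 744 bases ahead of the exon after it. Of the 11 annotated Mest transcripts, 7 span the hairpin, all with this same intron, and 0 exons overlap it.

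Depth ranged from 5.45 to 22.2 M reads per library (M for mega), with a mean of 14.7 M reads in OO, 18.8 in OC, 11.2 in CO and 9.94 in CC, and CO replicate 3 was the shallowest. Libraries of OC and OO have titles that begin differently from those of CC and CO, so a batch behind the prefix and the maternal diet cannot be told apart. OC replicate 2 and OO replicate 3 also carry the same number in their titles, and the labels do not say whether they were littermates.

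miR-335 was of middle abundance in these livers. miR-335-5p averaged 95.8 CPM (read counts scaled to a fixed library total) over the 12 libraries and was the 143rd most abundant of 386 rows, between miR-29b-3p at 96.2 CPM and miR-149-5p at 91.2 CPM. miR-335-3p averaged 42.5 CPM and ranked 173rd, between miR-664-3p at 42.8 CPM and miR-32-5p at 42.2 CPM. The median row had 29.7 CPM. The 5p arm was the more abundant in all 12 libraries.

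The 5p arm had its highest levels in OO. It stood at 118, 110 and 122 CPM in the 3 OO livers, at 100, 83.7 and 85.2 CPM in OC, at 73.6, 97.0 and 60.2 CPM in CO and at 106, 103 and 92.1 CPM in CC. Every OO liver lay above every liver of the other 3 groups, whereas OC, CO and CC overlapped. Of the 386 rows, OO lay above CO without overlap in 16.3%, above OC in 10.4% and above CC in 14%. The share of rows with OO above all 3 groups at once was not counted. The means were 116 ± 5.99 CPM in OO, 89.7 ± 9.21 in OC, 76.9 ± 18.6 in CO and 100 ± 7.21 in CC (SD, n = 3 each). From highest to lowest the order was OO, CC, OC, CO. CC overlapped OC, and OC overlapped CO. The livers of CC and CO overlapped as well, with a fitted log2 difference of -0.40 in CO against CC (95% interval -0.76 to -0.04).

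The 3p arm also had its highest levels in OO, and OC came next. It stood at 50.9, 57.7 and 64.5 CPM in OO, at 50.1, 41.6 and 40.4 CPM in OC, at 35.4, 38.6 and 25.3 CPM in CO and at 31.0, 42.7 and 32.1 CPM in CC. OO again lay above all other livers. The shares of all rows given for the 5p arm are against each other group singly. The share above all of them at once was not counted. CC replicate 2, at 42.7 CPM, was the only liver of a control mother above any liver of an obesogenic mother. The means were 57.7 ± 6.80 CPM in OO, 44.0 ± 5.29 in OC, 33.1 ± 6.90 in CO and 35.2 ± 6.48 in CC (SD, n = 3 each). In the order OO, OC, CC, CO, only OO stood clear of its neighbour, since OC overlapped CC and CC overlapped CO.

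**Figure D1:**
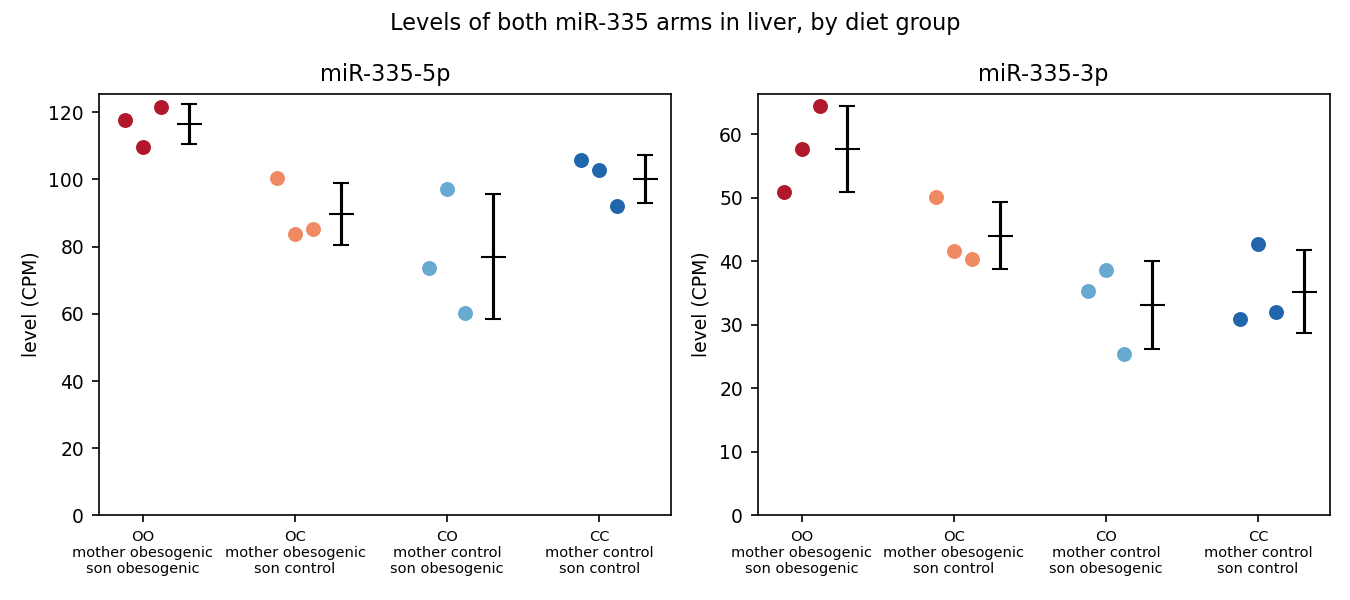
Level in CPM of miR-335-5p (left) and miR-335-3p (right) in each liver, with 1 point per library and, beside the points, the group mean with its SD as a bar (n = 3). The OO livers, at 110 to 122 CPM for the 5p arm and 50.9 to 64.5 CPM for the 3p arm, lie above all others. Against 1 other group at a time, OO lay above without overlap in 10.4% to 16.3% of all rows. The share above all other groups at once was not counted.

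For each arm, counting error was smaller than the spread between livers of a group. The fewest reads behind a value were 328 for the 5p arm and 138 for the 3p arm, both in CO replicate 3, which correspond to a counting SD of 5.52% and 8.51%. Between livers of a group the coefficient of variation was 5.14% to 24.2% for the 5p arm and 11.8% to 20.8% for the 3p arm, with the largest value in CO for both. In OO the counting SD of the 5p arm was 2.06% to 2.8%, against a coefficient of variation of 5.14%. These counting errors cover sampling of reads only.

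The mother's diet was compared within each diet of the sons and over both. In obesogenic-fed sons, OO against CO, both arms were higher: miR-335-5p by 0.62 on the log2(CPM + 1) scale (SE 0.165), or 1.53-fold (95% interval 1.19 to 1.97), and miR-335-3p by 0.80 (SE 0.188), or 1.74-fold (1.31 to 2.32). For both arms, all 3 OO livers were above all 3 CO livers, as were those of 16.3% of the 386 rows. The median of all rows was itself 0.13 higher in OO than in CO, and 0.02 higher after scaling by median-of-ratios factors. Relative to the median of all rows, the 5p arm was higher by 0.48 and the 3p arm by 0.66.

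In control-fed sons, OC against CC, the arms pointed in opposite directions. miR-335-5p had a log2 difference of -0.16 (SE 0.165, 95% interval -0.52 to 0.20) and miR-335-3p one of 0.32 (SE 0.188, 95% interval -0.09 to 0.73). Both intervals include 0, and the groups overlapped for both arms. With log2 depth as a covariate the 5p difference was -0.36 and the 3p difference 0.17, and without OC replicate 1 they were -0.24 and 0.23.

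Averaged over the sons' diet, miR-335-3p was higher with obesogenic mothers, at 50.8 ± 9.25 CPM against 34.2 ± 6.10 CPM with control mothers (SD, n = 6 each), a log2 difference of 0.56 (SE 0.133) or 1.47-fold (95% interval 0.27 to 0.85 on the log2 scale). It was the 4th highest of the 386 differences. The 6 livers against 6 overlapped for both arms, while 0.777% of all rows were higher with obesogenic mothers without overlap. miR-335-5p averaged 103 ± 16.2 CPM in the 6 livers from obesogenic mothers and 88.6 ± 17.9 CPM in the 6 from control mothers, with a log2 difference of 0.23 (SE 0.117, 95% interval -0.03 to 0.48). With log2 depth as a covariate these differences were 0.45 for the 3p arm and 0.08 for the 5p arm, and without CO replicate 3 they were 0.47 and 0.15. By limma with Benjamini-Hochberg adjustment, 0 of 386 rows (0%) passed an adjusted p of 0.05 in any of these 3 comparisons, so neither arm did. At an unadjusted p under 0.05 there were 27 rows for both sons' diets together, 47 in OO against CO and 4 in OC against CC.

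**Figure D2:**
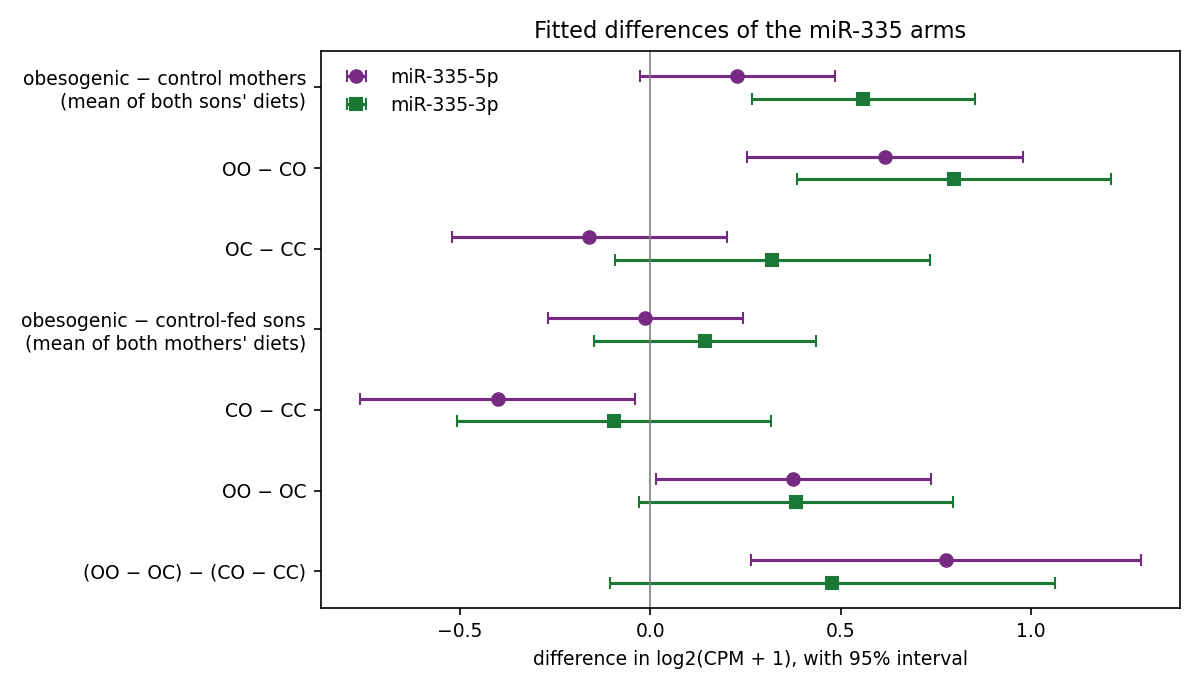
Fitted difference in log2(CPM + 1) of miR-335-5p (circles) and miR-335-3p (squares) for 7 comparisons, with the 95% interval as a bar; 0 is no difference. The 2 arms are closest in OO − OC (0.38 each). They lie on opposite sides of 0 in OC − CC and for the sons' diet over both maternal diets (5p -0.01, 3p 0.14).

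For the sons' own diet, the estimates of both arms were positive with obesogenic mothers and negative with control mothers. In sons of obesogenic mothers, OO against OC, both arms were 0.38 higher on the log2 scale (SE 0.165 for the 5p and 0.188 for the 3p arm), or 1.30-fold each, with 95% intervals of 0.01 to 0.74 for the 5p arm and -0.03 to 0.80 for the 3p arm on the log2 scale. The OO livers lay above the OC livers for both arms, as they did for 10.4% of all rows. In sons of control mothers, CO against CC, the 5p arm had a difference of -0.40 (SE 0.165, 95% interval -0.76 to -0.04) and the 3p arm one of -0.10 (SE 0.188, 95% interval -0.51 to 0.32). The CO and CC livers overlapped for both. Without CO replicate 3 the 5p difference was -0.24 and the 3p difference 0.08, and without CO replicate 2 they were -0.58 and -0.21.

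Averaged over the mothers' diet, the differences were -0.01 for miR-335-5p (95% interval -0.27 to 0.24) and 0.14 for miR-335-3p (95% interval -0.15 to 0.44), which became 0.23 on leaving out CO replicate 3 and 0.08 on leaving out CO replicate 2. The 5p arm averaged 96.7 ± 24.9 CPM in obesogenic-fed sons and 94.96 ± 9.36 CPM in control-fed sons (SD, n = 6 each). The 3p arm averaged 45.4 ± 14.8 CPM in obesogenic-fed sons and 39.6 ± 7.14 CPM in control-fed sons (SD, n = 6 each). By limma 3 of 386 rows (0.777%) passed for the sons' diet over both maternal diets, 3 (0.777%) in CO against CC and 2 (0.518%) in OO against OC, all lower in obesogenic-fed sons. The first were miR-31-5p, miR-182-5p and miR-5099, those in CO against CC miR-5099, let-7c-1-3p and miR-31-5p, and those in OO against OC miR-5099 and miR-182-5p. Neither miR-335 arm was among them.

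The difference between these effects, (OO − OC) − (CO − CC), was 0.78 on the log2 scale for miR-335-5p (SE 0.234, 95% interval 0.26 to 1.29), the 9th highest of 386, and 0.48 for miR-335-3p (SE 0.267, 95% interval -0.11 to 1.06), the 47th highest. The median of all rows was 0.13, and 0.01 with median-of-ratios factors. Relative to that median the 5p arm stood at 0.65. All 3 OO livers had more miR-335-5p than the OC mean of 89.7 CPM, and all 3 CO livers had less than the CC mean of 100 CPM. The CO and CC livers themselves overlapped, and the share of all rows with such a pattern was not counted. Without CO replicate 3 the difference was 0.62 for the 5p arm and 0.30 for the 3p arm, and without CO replicate 2 it was 0.96 and 0.60. By limma 0 of 386 rows (0%) passed, with 15 at an unadjusted p under 0.05.

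With both diets obesogenic, the OO livers lay above the CC livers for both arms, at 110 to 122 against 92.1 to 106 CPM for miR-335-5p and 50.9 to 64.5 against 31.0 to 42.7 CPM for miR-335-3p. Of all rows, 14% were higher in OO than in CC without overlap.

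Both arms come from the same hairpin, and the ratio of their CPM within a library does not depend on library scaling. The 5p arm exceeded the 3p arm 2.32, 1.90 and 1.89-fold in OO, 2.004, 2.01 and 2.11-fold in OC, 2.08, 2.52 and 2.38-fold in CO and 3.42, 2.40 and 2.87-fold in CC. The mean ratio was 2.04 ± 0.244 in OO, 2.04 ± 0.0589 in OC, 2.32 ± 0.222 in CO and 2.90 ± 0.507 in CC (SD, n = 3 each). The spread of 2.88% in OC was below the counting SD of the 3p arm in these livers, 3.0% to 3.83%. CC had the highest ratios and overlapped only CO. All OC and all OO ratios lay below all CC ratios, and of 99 hairpins with both arms listed, 6.06% did so in OC against CC and 9.09% in OO against CC.

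**Figure D3:**
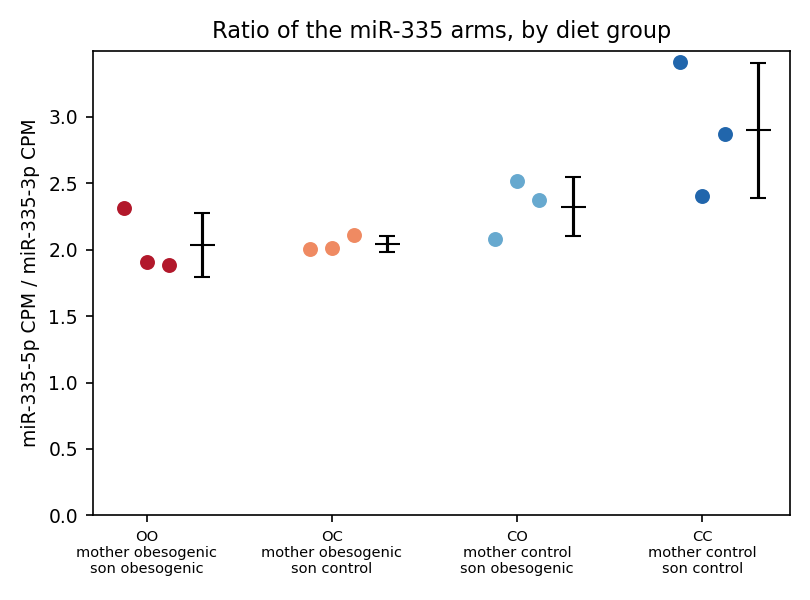
Ratio of miR-335-5p to miR-335-3p CPM in each liver, with the group mean and SD as a bar beside the points (n = 3). Ratios of sons of obesogenic mothers (OO and OC) lie between 1.89 and 2.32 and those of CC between 2.40 and 3.42. Those of CO, at 2.08 to 2.52, overlap each of the other groups.

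Fitted over all 99 hairpins on the log2 scale, the ratio of miR-335 was lower with obesogenic mothers by -0.34 (SE 0.107, 95% interval -0.58 to -0.11), the 5th lowest of 99, where the median hairpin stood at 0.0049. In OC against CC it was -0.49 (SE 0.151, 95% interval -0.82 to -0.16), the 3rd lowest, with a median of 0.0114. For the sons' diet it was -0.16 (SE 0.107, 95% interval -0.39 to 0.07). By limma 0 of the 99 hairpins (0%) passed in any of these 3, with 6 at an unadjusted p under 0.05 in each. Of the 2 groups of control mothers only CC lay clear of OO and OC, since the CO ratios of 2.08 to 2.52 overlapped both. CC also had the lowest mean depth, whose part in the ratio was not tested. CC replicate 1, with the highest ratio of 3.42, had 1408 reads of the 5p and 412 of the 3p arm.

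The arms were also compared within groups, a value into which the group means do not enter. After each group's mean was taken out, the 2 arms had Pearson's r = 0.71 and Spearman's rho = 0.59 over the 12 libraries (exact permutation p = 0.067 for r, two-sided, over all 1296 arrangements within groups). Without CO replicates 2 and 3, the libraries whose 5p level lay farthest from the median after group means were taken out, r was 0.44. It was 0.46 without CO replicate 3 alone (exact permutation p = 0.141) and 0.46 with median-of-ratios scaling of all libraries (exact permutation p = 0.228). Without CC replicate 1 it was 0.82 (exact permutation p = 0.026), and without any other library the exact permutation p lay between 0.060 and 0.169. CO replicate 3 was lowest in both arms, and it was also the shallowest library.

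**Figure D4:**
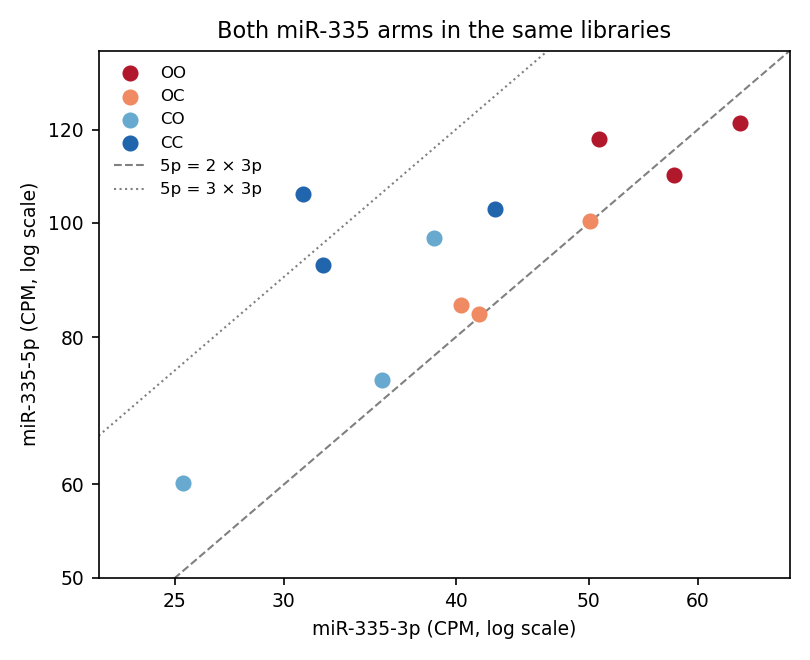
miR-335-5p against miR-335-3p in the 12 livers, in CPM on log axes, coloured by group, with lines where the 5p arm is 2 and 3 times the 3p arm. OO and OC livers lie near the lower line, and CC livers lie above it at ratios of 2.40 to 3.42. CO livers lie at ratios of 2.08 to 2.52, which overlap those of OO, OC and CC.

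Likeness to other miRNAs was measured by Pearson's r of log2(CPM + 1) over the 12 libraries, as a description. All values share library depth and scaling, and r falls for every row named here after median-of-ratios scaling. The 5 rows most like miR-335-5p were miR-29b-3p (r = 0.86), miR-17-5p (0.86), miR-126-3p (0.85), miR-126-5p (0.84) and miR-214-3p (0.82). miR-126 is best known from endothelium, miR-29b represses collagen genes, and miR-17-5p belongs to a cluster known from proliferation. The other arm of its own hairpin came 20th, at 0.76. With median-of-ratios scaling the 5 values lay between 0.65 and 0.77.

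The 5 rows most like miR-335-3p were miR-214-3p (r = 0.92), miR-326-3p (0.86), miR-199a-5p (0.84), let-7i-3p (0.82) and miR-210-3p (0.81), and the 5p arm came 16th. miR-214 and miR-199a come from 1 transcript and are known from mesenchymal and stellate cells, and miR-210 from hypoxia. miR-214-3p stood at 34.3, 37.9 and 42.7 CPM in OO, 31.0, 31.1 and 27.1 in OC, 26.9, 31.1 and 20.7 in CO and 27.8, 35.9 and 24.0 in CC. Its highest liver within OO, CO and CC was also the highest for miR-335-3p, and after group means were taken out r was still 0.91. miR-326-3p, encoded in an intron of Arrb1, was 0.84 higher in OO than in CO on the log2 scale, against 0.80 for miR-335-3p, and its r was 0.46 after group means were taken out.

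**Figure D5:**
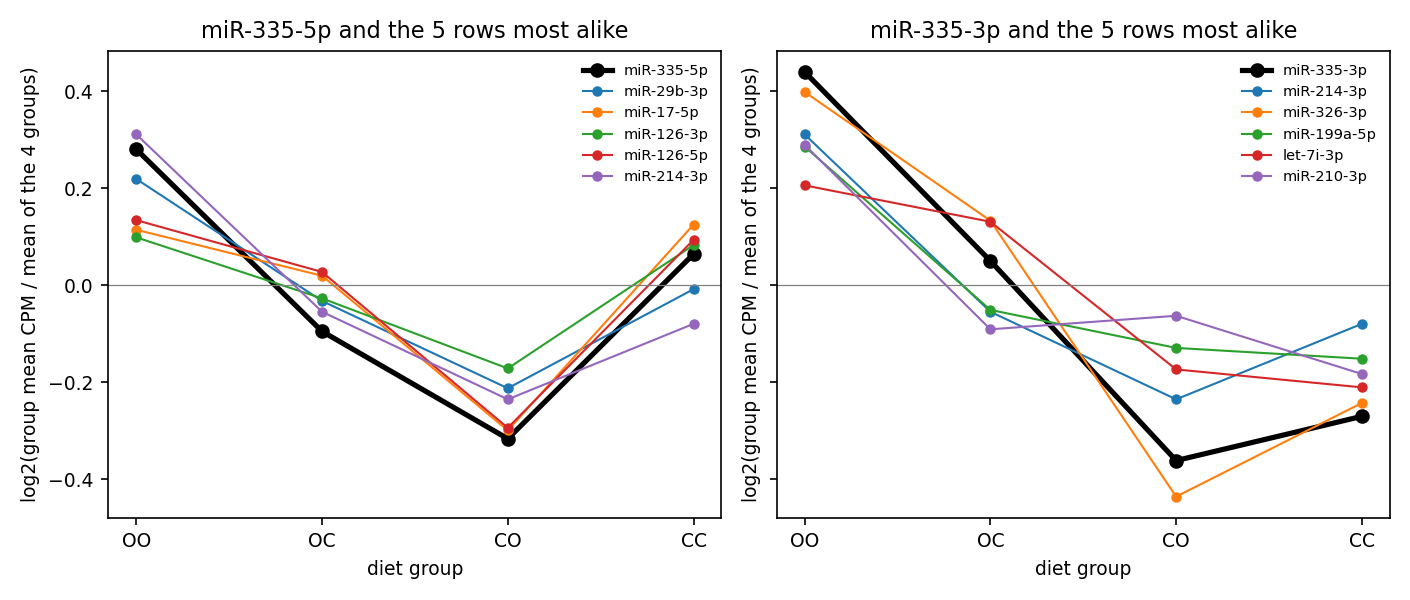
Group means of miR-335-5p (left) and miR-335-3p (right) in black, with the 5 rows most like each, as log2 of the group mean CPM over the mean of the 4 groups; 0 is that mean. The 5p arm is lowest in CO and highest in OO, and the 3p arm lies below 0 in both groups of control mothers.

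Marker miRNAs of other liver cells were summed per library, since fewer cells of a type and less RNA per cell cannot be told apart in whole liver. The 5 rows of the mesenchymal or stellate list (of 6 names, miR-199a-3p and miR-199b-3p forming 1 row), which miR-143-3p dominates, summed to 33760 to 36740 CPM in OO, 36130 to 39670 in OC, 36920 to 46180 in CO and 31520 to 48310 in CC. In OO against CO 4 of these 5 rows had a positive log2 difference, with a median of 0.31 against 0.13 over all rows, and miR-143-3p had -0.19 (SE 0.151). The endothelial rows were miR-126-3p and miR-126-5p. They summed to 24420 to 28050 CPM in OO, 23720 to 24650 in OC, 15580 to 22980 in CO and 24300 to 27100 in CC. CO thus lay below all other groups in this sum, and the share of all rows with that pattern was not counted. Both rows were already named as most like miR-335-5p, whose CO livers overlapped those of OC and CC. The 5 leukocyte rows summed to 2679 to 3060 CPM in OO, 2599 to 4093 in OC, 1752 to 2726 in CO and 2510 to 3205 in CC. In OO against CO both endothelial rows were positive, with a median of 0.36, and so were all 5 leukocyte rows, with a median of 0.42. Over all rows the median was 0.13, and the share that was positive was not counted. By limma 0 rows of these 3 lists passed in OO against CO. The part of these cells in the miR-335 levels was not tested.

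Markers of hepatocytes and of the remaining cell types are given as sums per library as well. The 4 hepatocyte rows are dominated by miR-192-5p, which averaged 246000 CPM, against 23400 CPM for miR-122-5p. They summed to 276700 to 282700 CPM in OO, 257100 to 278000 in OC, 270900 to 329600 in CO and 265200 to 273300 in CC. The 4 erythroid rows reached 2943 to 4532 CPM in OO, 2950 to 5242 in OC, 4252 to 8999 in CO and 2862 to 4255 in CC. The 5 epithelial rows spanned 399 to 681 CPM in OO, 396 to 892 in OC, 481 to 871 in CO and 422 to 670 in CC. The 4 listed rows (of 8 names) of muscle, pancreas and brain spanned 61.0 to 1227 CPM in OO, 79.5 to 2151 in OC, 131 to 1436 in CO and 272 to 795 in CC. In OO against CO, 0 of the 4 erythroid rows had a positive log2 difference (median -0.55) and 1 of the 5 epithelial rows (-0.15). The same held for 0 of the 4 rows of muscle, pancreas and brain (-0.62) and 2 of the 4 hepatocyte rows (-0.02). The median over all rows was 0.13, and 0 rows of these lists passed by limma in that comparison. No marker row had a value of 0.

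Imprinted miRNAs at other loci were divided between higher and lower values. In a list of 99 names from the Dlk1-Dio3, Igf2-H19, Gnas and Sfmbt2 loci, 21 rows were measured. All of them came from Dlk1-Dio3, Gnas or Sfmbt2, so Igf2-H19 was not covered, and most averaged under 10 CPM. In OO against CO, 0 of the 21 passed in either direction, 11 were positive and 10 negative, and their median was 0.01, against 0.13 over all rows. For the mothers' diet over both sons' diets the median was 0.02, against 0.08 over all rows. The 2 most abundant rows were miR-127-3p at 219 CPM and miR-411-5p at 87.7 CPM, both of the Dlk1-Dio3 cluster. The highest difference with maternal diet belonged to miR-467a-5p, from an intron of Sfmbt2 (0.42, SE 0.127, at 1.91 CPM), and the lowest to miR-134-5p (-0.40, SE 0.181).

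Other miRNAs in introns of protein-coding genes were counted in the same way, with 48 rows from 29 names. For the mothers' diet 0 passed, 38 were positive and 10 negative, with a median of 0.07 against 0.08 over all rows. In OO against CO 0 passed, 39 were positive and 9 negative, with a median of 0.19 against 0.13 over all rows. The most abundant were miR-26a-5p at 30800 CPM and miR-27b-3p at 25500 CPM. With maternal diet miR-582-3p, from an intron of Pde4d, had the highest difference (0.81, SE 0.420) and miR-26a-2-3p the lowest (-0.24, SE 0.166). Of 15 miRNAs linked to the liver or fat of obese mice, all were measured and 0 passed for the mothers' diet, with 12 positive, 3 negative and a median of 0.10, against 0.08 over all rows. The most abundant were miR-21a-5p at 49300 CPM and miR-143-3p at 36200 CPM, and the differences ran from -0.21 (SE 0.122, miR-21a-5p) to 0.30 (SE 0.141, miR-107-3p). For neither list was the share of all rows with a positive difference counted, and the median of all rows was itself positive.

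A pair of clusters of listed miRNAs lie within 1 Mb of the miR-335 hairpin on chromosome 6, both on the minus strand, opposite to Mest. miR-182-5p, miR-96-5p and miR-183-5p lie 0.572 to 0.575 Mb before it, and miR-29a and miR-29b-1 lie 0.321 to 0.322 Mb after it. miR-182-5p was lower with the obesogenic diet of the sons, over both maternal diets, with a log2 difference of -0.98 (SE 0.153, adjusted p = 0.0074 by limma), where miR-335-5p stood at -0.01 and miR-335-3p at 0.14. miR-29a-3p, at 4341 CPM, differed by 0.35 (SE 0.185) in OO against CO and -0.48 (SE 0.185) in CO against CC, neither passing by limma (adjusted p = 0.38 and 0.22), beside 0.62 and -0.40 for miR-335-5p. In OO against OC it differed by -0.004 (SE 0.185), beside 0.38 for miR-335-5p, and for the sons' diet by -0.24 (SE 0.131), beside -0.01. Of the other miR-29 rows there, OO against CO gave 0.91 (SE 0.435) for miR-29a-5p, 0.49 (SE 0.208) for miR-29b-3p and -0.07 (SE 0.261) for miR-29b-1-5p. miR-29b-3p, the row most like the 5p arm, is encoded by 2 hairpins, of which 1 is this neighbour.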

How the data were processed

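Per the labels' protocols, total RNA of frozen liver was isolated by miRNeasy with DNAse digestion and turned into libraries by the TruSeq small RNA kit. The submitters' processing notes list Bowtie 1.2.3. What genome build and miRNA reference it was run on, and how reads that match several miRNAs were counted, is not given in the sources used here. A single deposited table holds the authors' CPM for 386 rows and 12 libraries, and 0 rows include a 0. Each column was assigned by the column number in its sample's description. All values in a column were whole multiples of 1 step within 0.001 reads, which gave the depths and read numbers.

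limma 3.58.1 (R 4.3.3) was fitted to log2(CPM + 1) of all 386 rows with 1 mean for each group, trended prior variances and 7 contrasts, with Benjamini-Hochberg adjustment over all rows. A log2 difference on this scale slightly understates that of low rows. The same fit was made on the log2 arm ratio of 99 hairpins, added after the levels were seen, as was the search within 1 Mb. The labels name no litters, so p-values and intervals measure the spread between these livers. RNAfold 2.7.2, Python 3.11.15, numpy 2.4.6, pandas 2.3.3, scipy 1.17.1 and matplotlib 3.10.9 were used for the rest.

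The members, lists and comparisons were chosen with earlier results of these data known. Named besides the members were the 5 rows most like each arm, its neighbours in abundance and rows sharing its seed. From each list the rows that passed, the 2 most abundant and the highest and lowest with maternal diet were named. miR-182-5p and the rows of the miR-29a and miR-29b-1 hairpins were chosen after their values were seen. Alternatives covered the pseudocount, a filter at a mean of 10 CPM, median-of-ratios factors, log2 depth as a covariate, the 2 groups alone and leaving out each library. TMM factors, edgeR and DESeq2 were not run: the deposited unit is CPM, and the read numbers derived from it here served only for depth and counting error.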

Additional observations from a re-analysis of the deposited data

Results flagged for a closer look

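miR-335-5p differed in opposite directions with the sons' diet under the 2 maternal diets. The OO livers, at 110 to 122 CPM, lay above the OC livers, at 83.7 to 100 CPM, as they did in 10.4% of all rows. The CO livers, at 60.2 to 97.0 CPM, averaged less than the CC livers, at 92.1 to 106 CPM, but overlapped them. The log2 differences were 0.38 (95% interval 0.01 to 0.74) in OO against OC and -0.40 (-0.76 to -0.04) in CO against CC. Their difference, which was 0.62 without CO replicate 3, was 0.78 (SE 0.234, 95% interval 0.26 to 1.29), against a median of 0.13 over all rows. It did not pass an adjusted p of 0.05 by limma over all 386 rows, and it is given without a p of its own because the arm was selected on its levels in these groups. For miR-335-3p the CO livers lay on both sides of the CC mean of 35.2 CPM. Without CO replicate 3 the miR-335-5p difference in CO against CC was -0.24. In the 5 rows most like miR-335-5p, (OO − OC) − (CO − CC) lay between 0.39 and 0.53, so its sign was not particular to this arm. Those rows were picked for their likeness over the same libraries.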

How the results depend on the processing

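Over 17 or 18 alternatives per comparison, the differences of both arms kept their sign except where they were close to 0: the 5p arm for the sons' diet averaged over the mothers' diet (same sign in 11 of 17, range -0.10 to 0.07) and the 3p arm in CO against CC (16 of 18, range -0.21 to 0.08). One value moved by more than the spread between livers, miR-335-5p in OC against CC, to -0.36 with log2 depth as a covariate, and it lay between -0.24 and -0.11 on leaving out 1 library. On leaving out 1 library, OO against CO ranged from 0.46 to 0.80 for the 5p arm and from 0.62 to 0.92 for the 3p arm, lowest without CO replicate 3 and highest without CO replicate 2 for both. miR-335-5p passed by limma in 1 fit, OO against CO without CO replicate 2, where 2 of 386 rows passed. That fit leaves out the CO liver with the most miR-335-5p, at 97.0 CPM. As the arm was selected on its levels in these groups, this pass is no test of it. miR-335-3p passed in 0 fits.

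The count of all rows that passed was 8 with median-of-ratios factors for the sons' diet over both maternal diets. With log2 depth as a covariate it was 1 for the mothers' diet, 10 in CO against CC, 1 in OO against OC and 1 for (OO − OC) − (CO − CC). In the fit of the 2 groups alone it was 1 in CO against CC and 1 in OO against OC. On leaving out 1 library it ranged from 3 to 5 for the sons' diet, 1 to 4 in CO against CC, 0 to 2 in OO against OC and 0 to 2 in OO against CO. The cause was not tested. The within-group correlation of the arms ranged from 0.46 to 0.82. TMM factors, edgeR and DESeq2 were planned but not run. No paired analysis was possible because the labels neither number replicates nor tie sons to litters, and the replicate numbers used here only name the libraries.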
